A study of Mus musculus with 31 samples.

Results

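Phenformin was added to poly I:C in mice bearing 4T1 breast tumours, and the RNA of those tumours was compared with the RNA of 4T1 tumours from mice given poly I:C without phenformin. The comparison used 8 of the 31 libraries of the series, chosen by their titles: 4 libraries of the combination (poly I:C with phenformin) and 4 libraries of poly I:C given with PBS, the vehicle. The tumours were murine breast tumours grown orthotopically in syngeneic hosts, and all 8 carry the genotype tag WT. A further 4 control libraries (saline with PBS) and 3 phenformin libraries (saline with phenformin, numbered 1, 2 and 4), also titled 4T1, entered the same fit. The same arms of a second tumour model, titled MT, served for comparison. The age of the mice, the doses and the schedule are not given in the sources used here, and the labels do not state that the replicates are separate animals, so the p-values rest on the variation from library to library.

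The titles and the tags of the samples name opposite models. Libraries titled 4T1 carry the strain tag FVB and the cell line tag MT4788, libraries titled MT carry BALBc and 4T1-537, and the design text of the series assigns BALBc to 4T1 and FVB to MT. Groups here follow the titles. H2-Ea-ps, an MHC class II gene that only some mouse strains transcribe, ran from 214 to 970 CPM (a gene's reads scaled to library size) under the 15 titles of 4T1 and from 5.24 to 53 CPM under the 16 titles of MT. Cdkn2a, a tumour suppressor gene, measured 0.134 to 0.856 CPM against 13.4 to 111 CPM. Neither gene overlapped between the sets of titles.

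Phenformin is a biguanide, a relative of metformin, that blocks complex I, the NADH dehydrogenase of mitochondria. Poly I:C, an artificial RNA duplex, mimics the RNA of viruses. It is sensed by Toll-like receptor 3 in endosomes and by MDA5 in the cytosol, which switch on type I interferon and NF-kB target genes, the latter including neutrophil-attracting chemokines. The title of the series places the comparison in the question of how complex I inhibition and Toll-like receptor activation together act on the neutrophils of a breast tumour.

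The 8 libraries held 15410527 to 18210799 counts each, and 17445 genes passed the filter on low counts in the 4T1 fit. Libraries within a group differed in markers of muscle and of B cells. The epithelial keratin genes Krt8 and Krt18, markers of these carcinoma cells, were present in all 8, at 364 to 716 CPM and 605 to 1290 CPM of the library totals. Acta1, skeletal muscle actin, stood at 239, 5.15, 2.81 and 96.8 CPM in combination libraries 1 to 4 and at 3.65, 33.6, 18.1 and 1.49 CPM in poly I:C libraries 1 to 4. Igkc, the kappa light chain of B and plasma cells, stood at 657, 0.945, 3.31 and 0.621 CPM in poly I:C libraries 1 to 4 and at 1.1, 4.93, 55.9 and 1.3 CPM in the combination libraries. A single library of the poly I:C group, number 4, stood apart in inflammatory genes, with Il6 at 1.37 CPM against 7.56 to 11.3 CPM in the other 3 poly I:C libraries. It was also the closest of the 4 poly I:C libraries to the combination mean in 34.2% of all tested genes and in 28 (65.1%) of the genes called below.

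Between the combination and poly I:C, 43 of 17445 genes (0.246%) changed at a Benjamini-Hochberg adjusted p under 0.05 in edgeR's quasi-likelihood test. In the combination 26 genes were higher (0.149% of the genes tested) and 17 were lower (0.0974%). The higher genes included Dio2, which activates thyroid hormone, the imprinted RNA gene H19 and the growth factor gene Kitl. The lower genes included Adam12, Col5a3, Cdh11 and Tbx18, genes of matrix and mesenchyme, and Bcat1, Ctps and Cyp51, which encode metabolic enzymes. Before adjustment 3413 genes (19.6%) had a p under 0.05, of which 1751 were higher and 1662 lower, and the median log2 fold change over all genes was -0.0034. The fit takes its spread from all 15 libraries titled 4T1, and a fit of only the 2 groups compared gave 0 genes (2757 before adjustment). With all 15 libraries titled 4T1, DESeq2 gave 960. The size of the called set also depended on single libraries, with 1412 genes called without poly I:C library 4 and 1 to 16 called without any other 1 of the 8.

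Dio2 had the smallest p in the comparison. It encodes the deiodinase that converts thyroxine to the active hormone triiodothyronine inside cells, and is known as a gene induced through cyclic AMP. The gene (ENSMUSG00000007682) lies at chr12:90724552-90738438, minus strand, in GRCm38. Its level was 5.13, 6.32, 7.19 and 13 CPM in poly I:C libraries 1 to 4 and 50.6, 43.2, 67.6 and 73.2 CPM in combination libraries 1 to 4. Every combination library lay above every poly I:C library, and the highest poly I:C value was in library 4. The log2 fold change was 2.89 ± 0.33 (edgeR adjusted p = 0.00525). Control libraries stood at 35.5, 65.7, 66.1 and 38.8 CPM and phenformin libraries at 74.8, 48.7 and 96.9 CPM, so the poly I:C group was the low one of the 4 groups. Dio2 passed the test without each of the 8 libraries in turn, with log2 fold changes of 2.73 to 3.24. It did not pass in a fit of only the 2 groups (2.89, adjusted p = 0.0532) or when the libraries above 10 CPM of Acta1 were left out (2.60, adjusted p = 0.603), which left 2 libraries in each of the groups compared. Those were combination libraries 2 and 3 and poly I:C libraries 1 and 4, which stood apart from their group in Igkc and in Il6. Values of that fit therefore cannot separate muscle content from the weight of these poly I:C libraries.

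The 250 bases before the RefSeq start site of Dio2 (chr12:90739039-90739288, minus strand, GRCm38.p6) are shown because they hold a cyclic AMP response element, TGACGTCA, in capitals, which begins 95 bases before the start:
Dio2: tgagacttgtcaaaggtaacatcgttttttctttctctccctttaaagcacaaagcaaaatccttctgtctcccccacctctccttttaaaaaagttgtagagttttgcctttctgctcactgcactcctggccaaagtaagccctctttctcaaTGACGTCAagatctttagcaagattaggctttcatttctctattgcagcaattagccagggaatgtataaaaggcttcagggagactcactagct
These 8 letters, the same on both strands, occurred in 1.55% of all 32851 RefSeq windows of those 250 bases and in 2.9% of the 11489 tested genes with a window. Among the called genes they were found for Dio2 alone, of 17 higher and 12 lower genes with a window. The window lies within the span of Gm26512, a gene on the opposite strand (chr12:90738201-90869235, plus strand) whose exons overlap those of Dio2. Gm26512 was called higher as well (2.17 ± 0.38, 131 reads in the 8 libraries against 4495 for Dio2). The strand setting of the counting is not given in the sources used here, so reads of the 2 genes may not be separable.

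Other genes of thyroid hormone action did not pass the test. Of the 12 listed, 10 were tested, and Dio1, the other activating deiodinase, had 0 counts in all 8 libraries. Thra, a thyroid hormone receptor, stood at 38.3 to 48.7 CPM with poly I:C and 49.3 to 53.2 CPM with the combination (0.29 ± 0.12, adjusted p = 0.202). Those ranges did not overlap. Rxra, a partner receptor, stood at 47.5 to 69.8 and 69.4 to 83.6 CPM and its groups overlapped (0.35 ± 0.11, adjusted p = 0.126). The list's median log2 fold change was 0.09 (from 0.06 without poly I:C library 3 to 0.18 without poly I:C library 4).

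**Figure D1:**
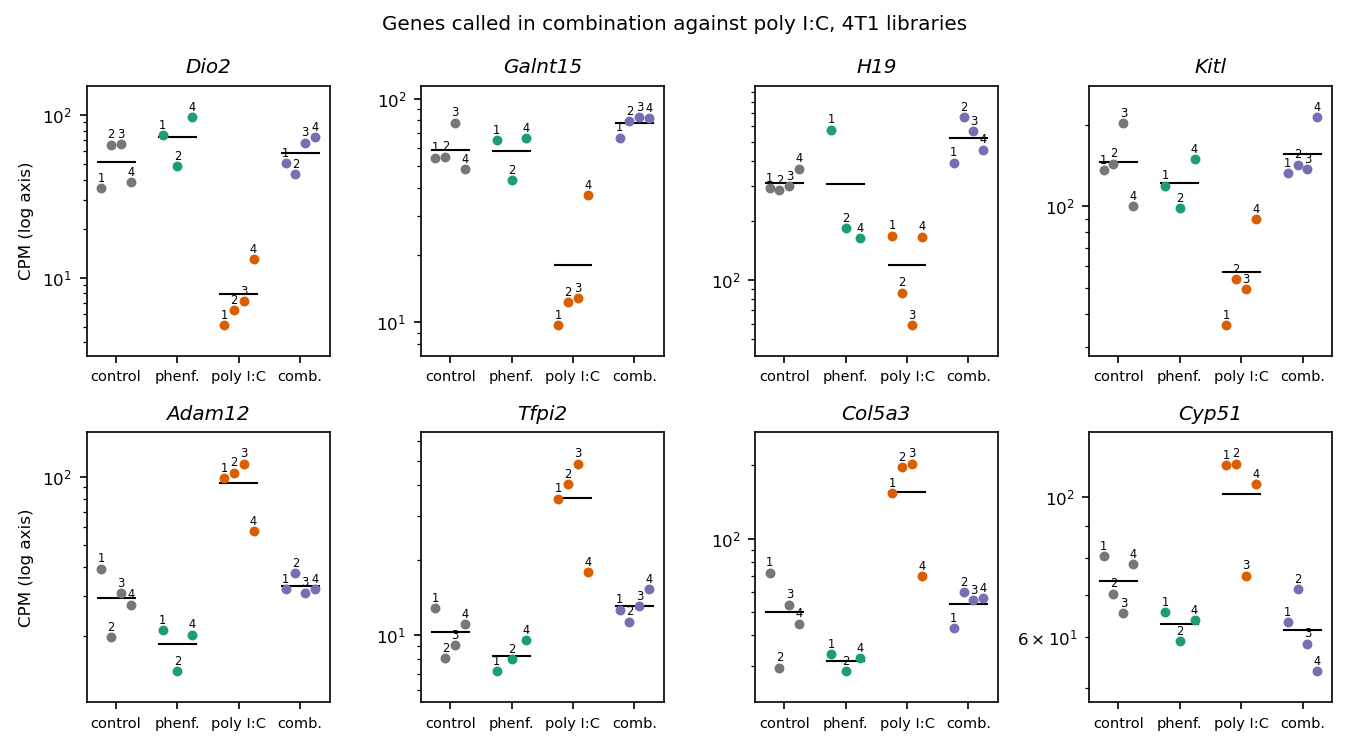
Levels of 8 called genes in each of the 15 libraries titled 4T1, in CPM on log axes, by treatment group; each point is a library with its replicate number and each bar a group mean. Dio2, Galnt15, H19 and Kitl had lower levels in the poly I:C libraries than in the combination libraries, and Adam12, Tfpi2 and Col5a3 had their highest group mean with poly I:C, with poly I:C library 4 the nearest of its group to the combination in 6 of those 7 genes.

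H19 (ENSMUSG00000000031, chr7:142575529-142578143, minus strand), a maternally expressed imprinted gene whose product is a long noncoding RNA, stood at 167, 86.3, 59.2 and 166 CPM in poly I:C libraries 1 to 4 and at 393, 669, 569 and 457 CPM with the combination. The groups did not overlap. The log2 fold change was 2.12 ± 0.40 (edgeR adjusted p = 0.0463). The control libraries stood at 284 to 367 CPM, and the 3 phenformin libraries ran widely, at 578, 183 and 162 CPM. Mir675, a microRNA hairpin inside an H19 exon (2.3 ± 0.41), and Gm27786, a short gene on the other strand of it (1.83 ± 0.35), were also called higher. Both share bases with H19 exons, and H19 held 43711 reads in the 8 libraries against 1534 for Mir675 and 3486 for Gm27786, so these 3 calls may count the same reads. The libraries were made from poly(A) RNA and do not measure the mature microRNA.

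Other imprinted genes had values in both directions. Igf2, the paternally expressed growth factor gene next to H19, stood at 0.798, 0.768, 1.02 and 1.06 CPM with poly I:C and at 6, 6.84, 1.71 and 1.64 CPM with the combination, low in all libraries and not called (2.15 ± 0.52, adjusted p = 0.0628). Rian, a noncoding RNA gene of another imprinted cluster, stood at 20.6, 35.4, 88 and 15.6 CPM against 11.7, 13.5, 10.5 and 13.7 CPM (-1.69 ± 0.41, adjusted p = 0.0628). The highest Rian value was in poly I:C library 3. Of the 13 imprinted genes tested, 2 were higher without overlap (against 4.71% of all genes) and 2 lower without overlap (against 3.74%). Their median was -0.25 (from -0.48 without combination library 3 to -0.12 without poly I:C library 3), or 0.22 when the libraries above 10 CPM of Acta1 were left out.

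Further higher genes encode secreted proteins and enzymes that build sugar chains on proteins. Kitl, the ligand of the Kit receptor also called stem cell factor (chr10:100015630-100100416, plus strand), stood at 36.4, 53.7, 49.2 and 89.5 CPM with poly I:C and 133, 143, 138 and 214 CPM with the combination (1.46 ± 0.27, adjusted p = 0.0445). Galnt15, a transferase that starts mucin-type sugar chains (chr14:32028989-32062197, plus strand), stood at 9.75, 12.3, 12.9 and 37.1 CPM and 66.9, 79.4, 82.6 and 81.6 CPM. Its groups did not overlap, though poly I:C library 4 lay well above the other 3 (2.11 ± 0.34, adjusted p = 0.0437). Man1c1, a Golgi mannosidase that trims N-linked sugar chains, rose by 0.92 ± 0.17 and stood at 15.2 to 29.6 CPM with poly I:C and 30.8 to 42.5 CPM with the combination. Thsd4, a matrix protein of fibrillin microfibrils, stood at 3.31 to 10.1 CPM with poly I:C and 14.8 to 21.9 CPM with the combination (1.61 ± 0.30). Serpine2, a secreted inhibitor of thrombin and urokinase, stood at 56.5, 77.4, 59.8 and 149 CPM and 209.7, 197, 240.2 and 276 CPM (1.43 ± 0.27). These 5 genes had control levels of 100.4 to 203, 48.3 to 78.1, 42 to 45.2, 12.8 to 25 and 107 to 152 CPM in that order, above the poly I:C libraries for Galnt15, Man1c1, Thsd4 and Kitl. Serpine2 in poly I:C library 4 fell inside its control range.

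Genes of RNA binding, translation and transcription were also among the higher ones. Cirbp, the cold-inducible RNA-binding protein, stood at 29.8, 27.4, 27.7 and 42.4 CPM with poly I:C and 62.2, 50.7, 85.6 and 54.2 CPM with the combination (0.99 ± 0.18). It was high in the phenformin libraries too, at 88.9, 86.3 and 78.4 CPM against 42.1, 36, 36.3 and 51.4 CPM in controls, a log2 difference of 1.03 ± 0.19 that did not pass the test (adjusted p = 0.144). Klf4, a zinc finger transcription factor, showed the same order, with 21.8, 20.3, 19.7 and 18.5 CPM with poly I:C, 44.5, 28.9, 47.1 and 27.5 CPM with the combination (0.88 ± 0.17), 22.4 to 28.2 CPM in controls and 33.7 to 44.9 CPM with phenformin. Eef2k, the kinase that slows translation by phosphorylating elongation factor eEF2, rose by 0.47 ± 0.08 and stood at 18.9 to 21.6 CPM with poly I:C and 27.1 to 29.2 CPM with the combination.

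Further higher genes act in lysosomes, membranes and mitochondria, most with changes under 1 on the log2 scale. Dirc2, a lysosomal membrane transporter, stood at 22.4 to 31.2 CPM with poly I:C and 35.4 to 46.3 CPM with the combination (0.68 ± 0.11). Ctsz, a lysosomal cysteine protease, rose by 0.37 ± 0.07 and stood at 229 to 263 CPM with poly I:C and 298 to 345 CPM with the combination. Bloc1s6, part of a complex that builds lysosome-related organelles, rose by 0.42 ± 0.08, Vps37d, a subunit of the ESCRT sorting machinery, by 0.90 ± 0.15, and Ergic3, a protein of the early secretory route, by 0.37 ± 0.07. Slc8b1, the mitochondrial sodium and calcium exchanger, stood at 15.2, 12.8, 15.7 and 22.5 CPM and 27.5, 32.6, 26.9 and 29 CPM (0.81 ± 0.15). Mocs1, an enzyme of molybdenum cofactor synthesis, rose by 0.62 ± 0.11. The other higher genes were Tanc2, a postsynaptic scaffold protein (0.95 ± 0.17), Uap1l1 (0.83 ± 0.15), Gm6977 (0.63 ± 0.12), Nsmf (0.62 ± 0.10), Iqcb1, a ciliary protein (0.45 ± 0.08), and Cd300ld5, of the CD300 receptor family (2.11 ± 0.38). Cd300ld5 was called at low levels, 0.124 to 0.285 CPM with poly I:C and 0.452 to 1.47 CPM with the combination. For Ctsz and Eef2k, exons of another gene on the opposite strand overlap their own.

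Among the lower genes were genes of matrix and mesenchyme. Adam12, a membrane-anchored metalloprotease (ENSMUSG00000054555, chr7:133883199-134232146, minus strand), stood at 98.8, 105, 115 and 57.9 CPM in poly I:C libraries 1 to 4 and 32.1, 37.9, 31 and 32.2 CPM with the combination. Number 4 was the lowest of the poly I:C group and still above every combination library. The gene fell by 1.5 ± 0.22 on the log2 scale (edgeR adjusted p = 0.0437). Col5a3, a collagen V chain, stood at 154, 197, 203 and 70.1 CPM against 42.7, 60.2, 56 and 57 CPM (-1.53 ± 0.29). Cdh11, the cadherin of mesenchymal cells, stood at 53.7, 80.8, 82.7 and 69.5 CPM against 47.1, 41.1, 38.7 and 40.1 CPM (-0.78 ± 0.14). Tbx18 and Hoxc8, transcription factors of embryonic mesenchyme and body patterning, fell by 1.28 ± 0.22 and 1.15 ± 0.21. Exons of Tbx18 are overlapped by those of D030062O11Rik, an opposite-strand gene absent from the deposited counts. Tfpi2, a secreted protease inhibitor, stood at 35.3, 40.3, 48.7 and 17.9 CPM against 12.6, 11.3, 13.1 and 15.3 CPM (-1.44 ± 0.24), and Prokr2, a prokineticin receptor, at 21.3, 22.3, 24.1 and 9.93 CPM against 4.71, 5.58, 5.99 and 8.29 CPM (-1.66 ± 0.29). For Col5a3, Tfpi2 and Prokr2, poly I:C library 4 came close to the highest combination value.

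Other lower genes encode metabolic enzymes. Bcat1, the cytosolic branched-chain aminotransferase, stood at 16.5, 21.1, 29.9 and 13.2 CPM against 7.68, 8.82, 7.71 and 7.45 CPM (-1.35 ± 0.23). Ctps, a CTP synthase, stood at 86.3, 103, 93.2 and 81.6 CPM against 63.3, 66.6, 60.6 and 58.3 CPM (-0.55 ± 0.10). Cyp51 (chr5:4081145-4104746, minus strand), lanosterol demethylase of the cholesterol pathway, stood at 112, 113, 75.1 and 105 CPM against 63.5, 71.5, 58.7 and 53.1 CPM (-0.71 ± 0.13). For Cyp51 the low one of its group was poly I:C library 3, just above the combination. Fads3, of the fatty acid desaturase family, fell by 0.72 ± 0.13. Exons of Akap9, on the opposite strand, overlap those of Cyp51, with 17598 reads for Akap9 against 10926. Bcat1 is overlapped in the same way by Gm26666, with 2 reads against 1866.

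Genes of signalling and RNA handling completed the lower set. Nlk, Nemo-like kinase, had the second smallest p: it stood at 40.8, 45.5, 39.4 and 41.3 CPM with poly I:C and 28.4, 29.1, 28.3 and 29.5 CPM with the combination, a narrow spread in both groups (-0.53 ± 0.07, adjusted p = 0.0196). Srsf1, a splicing factor, stood at 466 to 537 CPM against 297 to 369.7 CPM (-0.51 ± 0.10), and Fubp1, a nucleic acid binding protein known to regulate Myc, at 190.3 to 240.4 CPM against 127 to 165 CPM (-0.54 ± 0.09). Gm11508, on the other strand of Srsf1 and sharing exon bases with it, was lower as well (-0.62 ± 0.11), with 1975 reads against 56343. Fam98a fell by 0.65 ± 0.11 and Rftn2, of the raftlin family, by 0.85 ± 0.15. Exons of Gm10561, on the opposite strand, overlap those of Rftn2, with 251 reads against 1141.

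Phenformin minus control, in 4T1 tumours without poly I:C, shares no library with the comparison above. It gave 0 called genes (1753 at an unadjusted p under 0.05). Of the 43 genes called with poly I:C, 35 (81.4%) had the same sign there, against 57.1% of all genes tested. Among the 43, genes that share exon bases, such as H19 and Mir675, were each counted. Of the 3413 genes at an unadjusted p under 0.05 with poly I:C, 68.6% had the same sign. All 17 lower called genes and 18 of the 26 higher called genes did. Among those lower with phenformin alone were Cdh11 (-0.67 ± 0.15, 43.8, 32.7, 35.9 and 32.1 CPM in controls and 20.9, 22.6 and 24.7 CPM with phenformin), Fam98a (-0.50 ± 0.12), Fubp1 (-0.42 ± 0.10) and Adam12 (-0.67 ± 0.24). Galnt15 (-0.02 ± 0.35), H19 (-0.02 ± 0.41) and Kitl (-0.26 ± 0.29) had values near or below 0. The median size of the log2 change over the 43 genes was 0.88 with poly I:C and 0.29 without it, but the genes were chosen for the first.

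Whether phenformin acted differently with and without poly I:C was tested as an interaction. No gene passed (0 of 17445; 1628, 9.33%, at an unadjusted p under 0.05; DESeq2 called 36, voom with quality weights 2). The smallest p values were those of Cd300ld5 (3.10 ± 0.53, adjusted p = 0.461), Mapt, the gene of the microtubule protein tau (1.76 ± 0.33), Rasgef1b, a Ras family exchange factor (1.21 ± 0.23), Dio2 (2.38 ± 0.45) and Man1c1 (1.24 ± 0.25). Mapt stood at 2.51, 2.07, 2.23 and 1.8 CPM with poly I:C, 6.71, 3.94, 3.49 and 4.29 CPM with the combination, 3.21 to 4.54 CPM in controls and 2.06 to 2.75 CPM with phenformin. It was not called in the main comparison (1.09 ± 0.22, adjusted p = 0.0509).

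Poly I:C minus control shares the poly I:C libraries with the comparison above, so their values are set side by side and not related to each other. That comparison gave 1102 called genes (6.32%). Its log2 fold changes were -2.71 ± 0.32 for Dio2, -1.71 ± 0.34 for Galnt15, -1.35 ± 0.27 for Kitl, 1.68 ± 0.22 for Adam12, 1.64 ± 0.30 for Col5a3 and 1.79 ± 0.24 for Tfpi2, each with an adjusted p under the threshold. H19 (-1.38 ± 0.39, adjusted p = 0.0503), Cirbp (-0.38 ± 0.18, adjusted p = 0.211) and Srsf1 (0.09 ± 0.10, adjusted p = 0.596) did not pass there.

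In the MT model, the combination minus poly I:C (4 libraries against 4) gave 0 called genes of 17857 (1076, 6.03%, at an unadjusted p under 0.05). Of the 43 genes, 41 were tested there and 19 (46.3%) had the same sign as in 4T1, against 52.9% of all genes. For genes at an unadjusted p under 0.05 in 4T1 that share was 55.9%. The lower genes shared the sign in 13 of 17 and the higher genes in 6 of 24. Dio2 stood at 8.12, 6.9, 4.3 and 5.19 CPM in MT poly I:C libraries 1 to 4 and 1.76, 4.46, 5.03 and 3.5 CPM in MT combination libraries 1 to 4 (-0.73 ± 0.48, adjusted p = 0.846). Galnt15 stood at 11.3, 23.9, 13.4 and 13.3 CPM and 7.28, 9.48, 10.5 and 8.97 CPM (-0.77 ± 0.36). Adam12 (-0.80 ± 0.32) and Col5a3 (-1.09 ± 0.42) had the 4T1 sign in MT without passing. The MT libraries also differed within a group. Igkc stood at 9110, 129, 29.1 and 2210 CPM of the library totals in MT combination libraries 1 to 4. In MT poly I:C libraries 1 to 4 it stood at 33.1, 26.5, 2810 and 250 CPM. Epcam, an epithelial gene, stood at 190, 952, 894 and 663 CPM and at 889, 556, 502 and 742 CPM in the same order. The part of these differences in the MT values was not tested.

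The difference between the models was tested in 1 fit of all 31 libraries and no gene passed (0 of 18956; 1584, 8.36%, at an unadjusted p under 0.05; DESeq2 called 40, voom 662). Dio2 and Galnt15 came closest, with differences, 4T1 minus MT, of 3.62 ± 0.61 and 2.87 ± 0.50 (adjusted p = 0.051 for each). Next were Cyth3, an exchange factor for ARF proteins (0.72 ± 0.14), Fnip1, a folliculin partner known to bind AMPK (0.99 ± 0.21), and Srsf7, a splicing factor (-0.74 ± 0.16). Fnip1 stood at 76.4, 70.1, 76.1 and 104 CPM with poly I:C and 118, 121, 108 and 101 CPM with the combination in 4T1 (0.45 ± 0.14), and its log2 change was -0.54 ± 0.14 in MT. The groups of Fnip1 overlapped in 4T1 through poly I:C library 4.

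**Figure D2:**
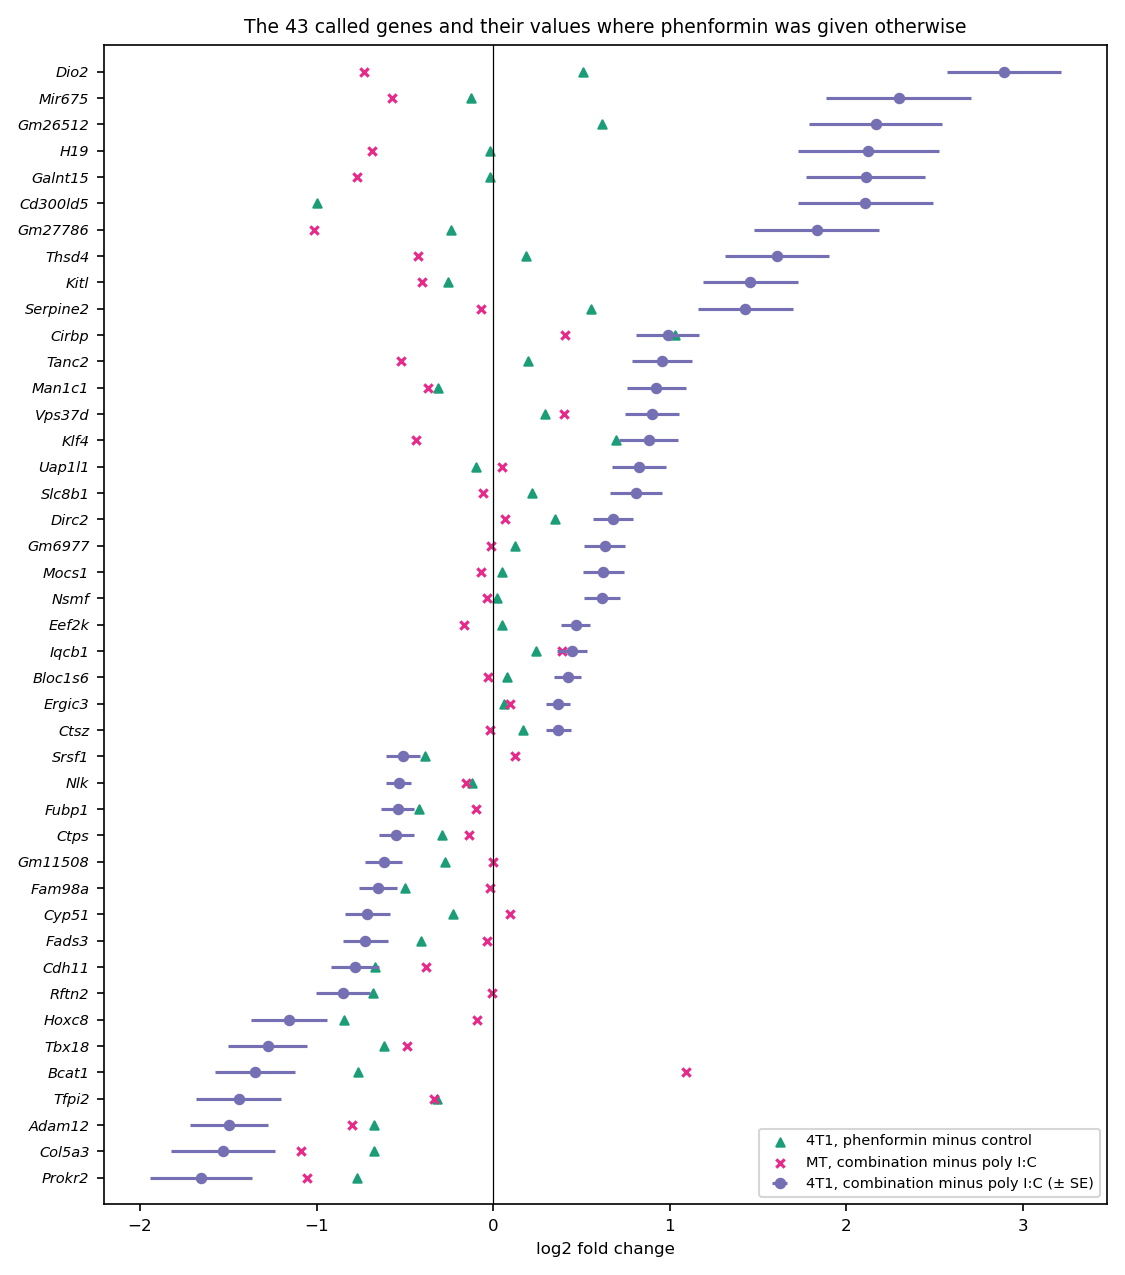
Log2 fold changes of the 43 called genes: circles with SE bars for the combination minus poly I:C in 4T1, triangles for phenformin minus control in 4T1 and crosses for the combination minus poly I:C in MT (41 genes). The 17 lower genes all had triangles below 0, and most of the higher genes (18 of 24) had crosses below 0.

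Gene lists of pathways and cell types were described by how many tested members lay on each side, by their median log2 fold change, and by how many had groups without overlap. Where leaving out 1 library moved a median by over 1.5 times, the value without that library, or the range where more than 3 libraries did so, stands in parentheses. Over all genes 8650 lay above 0 and 8795 below, 821 (4.71%) were higher without overlap and 653 (3.74%) lower without overlap. In bulk tissue, fewer cells of a type and less RNA per cell cannot be told apart.

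Fibroblast and matrix genes lay mostly below 0. Of 22 tested, 20 lay below 0, 14 were lower without overlap of the groups (against 3.74% of all genes) and 1 higher, and the median was -0.94. The 2 above 0 were Pdgfra (6064 reads in the poly I:C libraries and 8634 in the combination libraries) and Fn1 (326709 and 431564 reads). No member passed over all genes, and 19 had an unadjusted p under 0.05 and a lower value (against 9.53% of all genes). Acta2, smooth muscle actin of activated fibroblasts, stood at 123, 189, 211 and 147 CPM with poly I:C and 77.7, 90.9, 93.8 and 88.1 CPM with the combination (-0.93 ± 0.20, adjusted p = 0.0534). Tagln, an actin-binding protein of such cells, stood at 165, 185, 229 and 105 CPM and 63.8, 71.5, 83.1 and 105 CPM (-1.08 ± 0.24, adjusted p = 0.0534), where poly I:C library 4 and combination library 4 nearly met. Fbn1, the fibrillin of microfibrils, stood at 127, 206, 204 and 110.5 CPM and 85.3, 80.4, 95.2 and 83.4 CPM (-0.91 ± 0.20, adjusted p = 0.0548). The summed level of the list was 14659.7 to 24999 CPM in poly I:C libraries and 12198 to 15384 CPM in combination libraries. The list's median was -0.58 for phenformin minus control and -0.56 for the combination minus poly I:C in MT. With the libraries above 10 CPM of Acta1 left out, it was -0.44 in the 4T1 comparison, and without poly I:C library 4 it was -1.06.

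Metalloproteases and their inhibitors had 17 of 20 tested members below 0 and a median of -0.58 (-0.20 when the libraries above 10 CPM of Acta1 were left out). Called lower were 2, Adam12 and Tfpi2 (against 0.0974% of all genes). Adam19, a relative of Adam12, stood at 66.1, 77.6, 90.6 and 54.3 CPM with poly I:C and 42.3, 43.6, 50.8 and 39.2 CPM with the combination and just missed the threshold (-0.71 ± 0.14, adjusted p = 0.0509). Target genes of TGF-beta and YAP had a median of -0.20, with 15 of 18 below 0 and none called.

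NF-kB targets and inflammatory cytokines lay below 0 in 27 of 30 cases, with a median of -0.70 (-1.06 without combination library 4), none called and none without overlap of the groups. At an unadjusted p under 0.05, 20 of the 30 were lower (against 9.53% of all genes) and 1 higher. Il6, an inflammatory cytokine (ENSMUSG00000025746), stood at 10.3, 7.56, 11.3 and 1.37 CPM in poly I:C libraries 1 to 4 and at 1.29, 0.821, 1.65 and 2.03 CPM with the combination. Of the poly I:C libraries 3 stood above every combination library and library 4 lay among them (-2.39 ± 0.50, adjusted p = 0.0514). Lif, a cytokine of the Il6 family, stood at 64.4, 55.7, 62.7 and 31 CPM and 23.5, 23.7, 24.9 and 33.2 CPM (-1.02 ± 0.24, adjusted p = 0.0613). Il1a and Il1b, the interleukin-1 genes, had changes of -2.22 ± 0.58 and -1.76 ± 0.49. Without poly I:C library 4 the list's median was -0.98 and Il6 passed the test (-2.74, adjusted p = 0.00118). Il6 was 1 of the 1412 genes called in that fit.

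Genes that attract or expand neutrophils lay mostly below 0. Of 15 tested, 12 lay below 0, with a median of -1.04 (-1.60 without combination library 4 and -0.66 without poly I:C library 3) and none called. Cxcl1, Cxcl2 and Cxcl3 encode ligands of the neutrophil receptor Cxcr2, and the growth factor genes Csf2 and Csf3 drive the output of granulocytes. Cxcl1 stood at 89.6, 33.7, 38.1 and 3.29 CPM with poly I:C and 8.06, 5.04, 17.8 and 24.1 CPM with the combination (-1.58 ± 0.67, adjusted p = 0.222). Cxcl2 stood at 125, 19, 69.5 and 1.06 CPM and 3.68, 1.97, 14.3 and 3.1 CPM (-3.22 ± 0.95, adjusted p = 0.104), and Cxcl3 had a change of -2.71 ± 0.83. Csf3 stood at 105, 56.4, 45 and 10.3 CPM and 12.5, 10.5, 16.3 and 36 CPM (-1.52 ± 0.53, adjusted p = 0.147). For these 4 genes poly I:C libraries 1 to 3 lay above all combination libraries. Poly I:C library 4 lay below every combination library for Cxcl1, Cxcl2 and Csf3 and among them for Cxcl3. Csf2, at 0.869 to 2.05 CPM and 0.258 to 0.673 CPM, was lower without overlap (-1.69 ± 0.44, adjusted p = 0.0803).

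The promoters of Il6 and of these chemokines carry a known NF-kB site close to the start, shown here for Il6 and Cxcl2 in capitals (GGGATTTTCC and GGGAATTTCC), each in the 250 bases before the RefSeq start site in GRCm38.p6, plus strand (chr5:30012864-30013113 and chr5:90903649-90903898):
Il6: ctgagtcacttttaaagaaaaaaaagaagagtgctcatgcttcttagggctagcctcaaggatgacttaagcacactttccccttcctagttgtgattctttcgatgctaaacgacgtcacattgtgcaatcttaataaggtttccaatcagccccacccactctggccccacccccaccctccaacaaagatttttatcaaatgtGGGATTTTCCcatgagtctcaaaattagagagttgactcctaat
Cxcl2: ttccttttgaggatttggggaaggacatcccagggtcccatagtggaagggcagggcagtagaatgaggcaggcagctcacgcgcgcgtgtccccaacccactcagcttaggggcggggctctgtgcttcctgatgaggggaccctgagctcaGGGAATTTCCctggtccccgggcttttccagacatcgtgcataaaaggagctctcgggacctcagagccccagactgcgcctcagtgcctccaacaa
The site begins 44 bases before the start of Il6 and 97 before that of Cxcl2. GGGAATTTCC begins 71 bases before the start of Cxcl1 and 73 before that of Cxcl3. The motif searched, GGGA and TTTCC with any base between them on either strand, occurred in 0.356% of all 32851 windows of 250 bases and in 0.479% of the 11489 tested genes with a window. It was found for 4 of the 12 genes with a window on the neutrophil-attracting list and for 3 of 20 on the NF-kB list. The match describes these letters and was not tested as a site of binding.

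Neutrophil markers had 22 of 24 tested members below 0, a median of -1.47 and none called. S100a9, a calcium-binding protein abundant in neutrophils, stood at 393, 143, 453 and 17.8 CPM with poly I:C and 41.3, 28.5, 115 and 47.8 CPM with the combination (-2.11 ± 0.70, adjusted p = 0.13), and its partner S100a8 had a change of -2.03 ± 0.69 (adjusted p = 0.139). Poly I:C library 4 was the lowest of all 8 libraries for both genes. Trem1, an activating receptor of neutrophils and monocytes, stood at 22.2, 17.2, 19.2 and 11.9 CPM and 8.19, 11.4, 11.9 and 9.64 CPM (-0.78 ± 0.20, adjusted p = 0.0794). The summed level of the list was 835 to 2826 CPM in poly I:C libraries and 827 to 1517 CPM in combination libraries. Ly6g, the marker used to sort mouse neutrophils, gave 43 reads in the 4 poly I:C libraries together and 14 in the combination libraries, with 2 of the 8 libraries at 0, so its change was not measurable at this depth. In MT the list's median was 0.31.

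Genes of neutrophil effector functions and the oxidative burst had a median of 0.00072, with 9 of 17 above 0. That median ran from -0.02 (without combination library 3) to 0.16 (without poly I:C library 1) on leaving out a library and changed sign in 11 of the 18 other settings. Cybb, the catalytic subunit of the phagocyte oxidase, stood at 109, 105, 115 and 150.3 CPM with poly I:C and 155, 159.9, 163 and 193 CPM with the combination, without overlap and without passing (0.48 ± 0.16, adjusted p = 0.129). Nos2, the inducible nitric oxide synthase, stood at 288, 168, 205 and 38.9 CPM and 29.9, 40.4, 74.9 and 118 CPM (-1.41 ± 0.54, adjusted p = 0.182). Ptgs2, an enzyme of prostaglandin synthesis, stood at 290.3, 228, 394 and 102 CPM and 105, 127, 155 and 129.6 CPM (-0.97 ± 0.37, adjusted p = 0.18). Acod1, the itaconate-producing enzyme of activated myeloid cells, had a change of -1.09 ± 0.58 (adjusted p = 0.312) and Arg1, arginase, one of -0.22 ± 0.34 (adjusted p = 0.761). The groups of these 4 last genes overlapped.

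**Figure D3:**
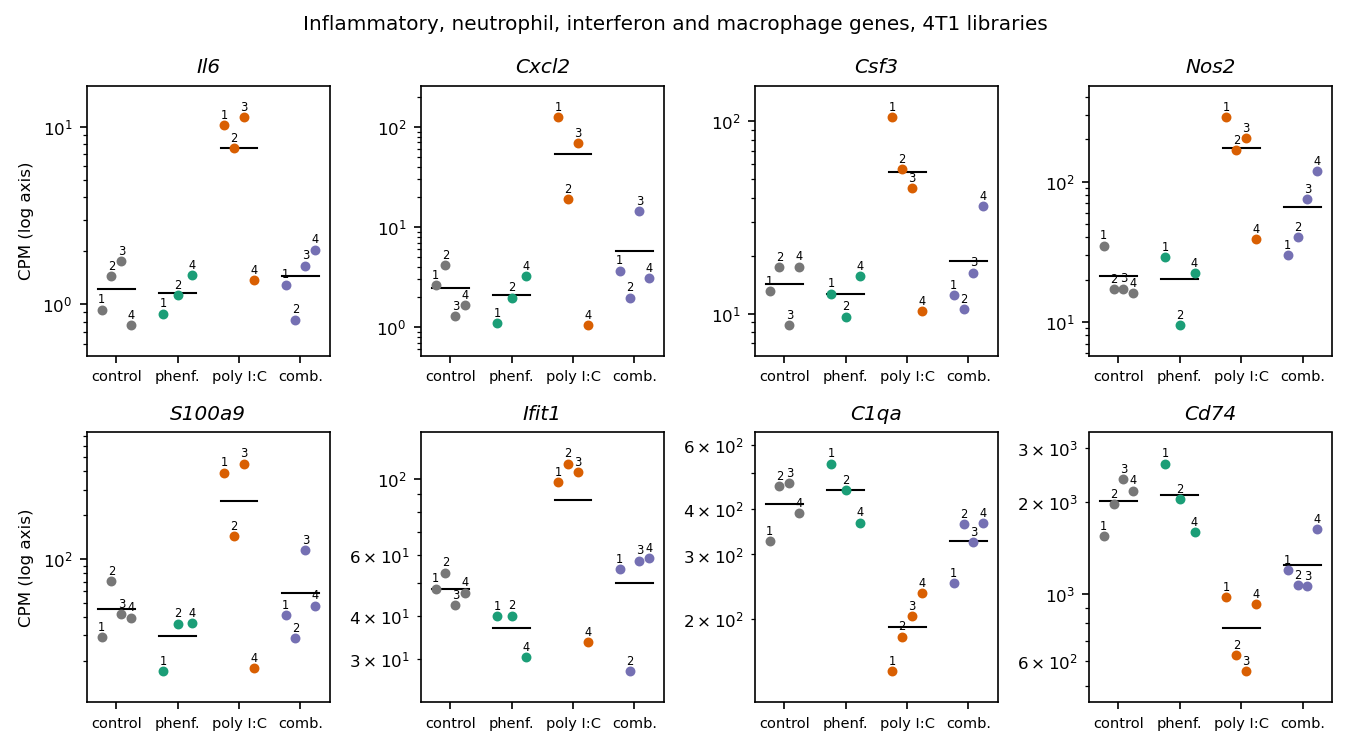
Levels of 8 immune genes in each of the 15 libraries titled 4T1, in CPM on log axes; each point is a library with its replicate number and each bar a group mean. Poly I:C library 4 lies apart from the other 3 poly I:C libraries in Il6, Cxcl2, Csf3, Nos2, S100a9 and Ifit1, while C1qa and Cd74 are higher in all 4 combination libraries than in any poly I:C library.

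Interferon-stimulated genes lay below 0 in 30 of 32 cases, with a median of -0.37 (-0.61 without poly I:C library 4) and none called. Ifit1, an antiviral protein, stood at 97.8, 110.4, 105 and 33.7 CPM with poly I:C and 54.8, 27.7, 57.9 and 59 CPM with the combination (-0.80 ± 0.30, adjusted p = 0.174). Trim30a stood at 164, 163, 167 and 94.9 CPM and 104, 80.7, 115 and 115 CPM (-0.51 ± 0.19). Eif2ak2, the kinase PKR that senses double-stranded RNA, was the list's 1 member without overlap (3.125% of the list, against 3.74% of all genes). It stood at 151, 167, 146 and 140.3 CPM and 122, 107, 131 and 127 CPM (-0.31 ± 0.09, adjusted p = 0.112). Among sensors of double-stranded RNA, Tlr3 stood at 75.5, 103, 81.3 and 80.7 CPM and 104, 62.9, 76.1 and 83.7 CPM (-0.06 ± 0.16, adjusted p = 0.87), and Ticam1, the adaptor TRIF of Tlr3, at 12.5, 9.45, 10.5 and 13.5 CPM and 18.9, 16.2, 15.5 and 15.1 CPM (0.51 ± 0.13, adjusted p = 0.0662). The summed level of the interferon list was 2104 to 4547 CPM in poly I:C libraries and 1986 to 3642 CPM in combination libraries.

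Macrophage and antigen presentation genes lay mostly above 0. Of 18 macrophage markers tested, 17 lay above 0, 3 were higher without overlap (against 4.71% of all genes) and none was called, with a median of 0.57 (0.32 without poly I:C library 1). C1qa, a complement subunit made by tissue macrophages, stood at 144, 179, 204 and 235 CPM with poly I:C and 251, 364, 324 and 366 CPM with the combination (0.78 ± 0.17, adjusted p = 0.0548). C1qb and C1qc, the other subunits, had changes of 0.89 ± 0.21 and 0.80 ± 0.21, and Apoe, a lipid carrier, stood at 681, 767, 893 and 881 CPM and 909.8, 1275, 1597 and 1319 CPM (0.66 ± 0.19, adjusted p = 0.0945). Control libraries held C1qa at 327, 461, 470.5 and 389 CPM. MHC class II genes had a median of 0.58 (0.29 without combination library 4), with 9 of 11 above 0. Cd74, the invariant chain, stood at 974, 630.2, 557 and 924 CPM and 1195, 1068, 1056 and 1629 CPM (0.68 ± 0.22, adjusted p = 0.12), and H2-Ab1, a class II beta chain, had a change of 0.71 ± 0.25. With the libraries above 10 CPM of Acta1 left out, the class II median was 0.01. That fit compared only poly I:C libraries 1 and 4 with combination libraries 2 and 3. In MT the medians of the macrophage and class II lists were -0.43 and 0.17.

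MHC class I genes had 17 of 18 tested members above 0, a median of 0.24 (0.15 without combination library 4) and none called. B2m, the light chain of class I molecules, stood at 2299, 2536, 2862 and 2395 CPM with poly I:C and 3342, 2775, 3234 and 3516 CPM with the combination, overlapping at 1 library of each group (0.35 ± 0.09, adjusted p = 0.0801). H2-D1, a heavy chain, stood at 1810.5, 2136, 2165 and 2001 CPM and 2672, 2193, 2597 and 2717 CPM (0.33 ± 0.10, adjusted p = 0.122), and H2-K1 had a change of 0.33 ± 0.11. With the libraries above 10 CPM of Acta1 left out, the list's median was 0.02. Class I genes resemble each other closely, so the counting may have split reads among them.

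Complex I subunits, the target of phenformin, showed small values. Of 36 tested, 29 lay above 0, 3 were higher without overlap (8.33%, against 4.71% of all genes) and none was called, with a median of 0.10 (0.05 without combination library 4). Ndufs7 stood at 15.2, 14.4, 19.7 and 17.8 CPM with poly I:C and 22.4, 23.1, 20.2 and 23.2 CPM with the combination (0.41 ± 0.14, adjusted p = 0.149), Ndufb11 had a change of 0.37 ± 0.12 and Ndufv2 one of 0.24 ± 0.08. Ndufs4 stood at 45.6 to 76.4 CPM and 49.2 to 69.4 CPM (0.04 ± 0.16). The median was 0.08 for phenformin minus control and 0.28 for the combination minus poly I:C in MT. Of the 13 mitochondrially encoded genes 9 were tested, all above 0, with a median of 0.12 (0.40 without poly I:C library 1, 0.05 without poly I:C library 2 and -0.0083 without poly I:C library 4), none called and all with overlapping groups. The gene mt-Nd1 had a change of 0.26 ± 0.22 (adjusted p = 0.522). The other 4, mt-Co2, mt-Co3, mt-Atp6 and mt-Atp8, held at most 2 reads each in the 8 libraries.

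Cholesterol synthesis genes lay below 0 in 18 of 22 cases, with a median of -0.37. Without overlap 5 were lower (against 3.74% of all genes), and Cyp51 was called lower (against 0.0974% of all genes). Hsd17b7, another enzyme of the pathway, stood at 25.8, 27.6, 19.9 and 20.7 CPM with poly I:C and 14.5, 13.4, 15.8 and 9.93 CPM with the combination (-0.81 ± 0.16, adjusted p = 0.0509). The median was -0.12 for phenformin minus control and 0.06 in MT. Fatty acid synthesis genes had a median of 0.03 (from -0.04 without poly I:C library 1 to 0.13 without poly I:C library 4) and glycolysis genes one of -0.06 (from -0.13 without poly I:C library 4 to -0.03 without poly I:C library 3), with none called in either list.

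Stress responses gave values in both directions. Hypoxia-responsive genes had a median of -0.22 (-0.04 without poly I:C library 3 and -0.36 without poly I:C library 4), with 15 of 20 below 0 and none called, and a median of 0.06 when the libraries above 10 CPM of Acta1 were left out. The oxygen-sensing hydroxylase gene Egln3 was higher without overlap, at 143, 129, 154 and 163 CPM with poly I:C and 207, 248, 206 and 265 CPM with the combination (0.66 ± 0.18, adjusted p = 0.0859), while its relative Egln1 had a change of -0.23 ± 0.10. Slc7a11, the cystine transporter, stood at 52.2, 44.5, 31.9 and 68.8 CPM and 74.6, 82.3, 103 and 118 CPM (0.94 ± 0.23, adjusted p = 0.0661), and its partner chain Slc3a2 had a change of 0.40 ± 0.10. Mthfd2, an enzyme of mitochondrial folate metabolism on the same list as Slc3a2, was lower without overlap, at 24.8 to 34.4 CPM and 16.9 to 20.9 CPM (-0.60 ± 0.17). Fth1, the heavy chain of ferritin, stood at 2155, 2045, 2398 and 1839 CPM and 2672, 2549.8, 3687 and 2868 CPM (0.48 ± 0.12, adjusted p = 0.0628). Sod1, a superoxide dismutase, had a change of 0.36 ± 0.09 (adjusted p = 0.0655).

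Cell survival and lipid genes near the threshold included Bcl2l11, the pro-apoptotic protein Bim, at 70.5, 77.6, 71.3 and 91.3 CPM with poly I:C and 141, 109, 150.2 and 95.2 CPM with the combination (0.67 ± 0.14, adjusted p = 0.0514). Bcl2l1, the anti-apoptotic protein Bcl-xL, had a change of 0.34 ± 0.08 (adjusted p = 0.0625) and Aen, a p53 target, one of -0.48 ± 0.12 (adjusted p = 0.0698). Pnpla2, the lipase that starts the breakdown of stored fat, stood at 35.9, 44.1, 38.4 and 53.9 CPM and 74.4, 69.9, 71 and 60 CPM (0.68 ± 0.14, adjusted p = 0.0509). S phase genes had a median of -0.18 (-0.09 without combination library 3 and -0.06 without poly I:C library 4) and G2 and M phase genes one of -0.09 (from -0.24 without poly I:C library 3 to 0.16 without poly I:C library 4), with none called and none without overlap.

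Markers of other cell types showed which libraries carried them. Skeletal muscle markers lay above 0 in all 15 tested cases, with a median of 2.22 (1.06 without combination library 1), none called and none without overlap. Their summed level was 35.3 to 253 CPM in poly I:C libraries and 36.5 to 1011 CPM in combination libraries, with combination libraries 1 and 4 highest, and 1 marker, Myh7, was at 0 in 2 of the 8 libraries. With a muscle score as a covariate 14 genes were called, of which 12 were among the 43, and the medians were -0.94 for fibroblast genes, -0.75 for NF-kB targets and 0.76 for macrophage markers. B and plasma cell genes had a median of -3.74 (-5.71 without combination library 3 and 0.95 without poly I:C library 1). Ms4a1, the B cell gene of CD20, stood at 101, 0.118, 0.255 and 0.0621 CPM with poly I:C and 0.0645, 0.164, 0.856 and 0.113 CPM with the combination. T and NK cell genes had a median of -0.76 (0.30 without poly I:C library 1). Prf1, perforin of killer lymphocytes, stood at 14.5, 6.55, 11.2 and 11.1 CPM and 33.2, 27.4, 10.5 and 13.9 CPM (0.97 ± 0.38, adjusted p = 0.193). Epithelial and tumour cell markers had a median of 0.15 (from -0.07 without combination library 1 to 0.22 without combination library 2) and a summed level of 4589.7 to 6586 CPM in poly I:C libraries and 5684 to 6567 CPM in combination libraries, which overlapped. With the libraries above 10 CPM of Acta1 left out, the medians were -0.89 for neutrophil markers, -1.53 for T and NK cell genes, -0.09 for TGF-beta and YAP targets, -0.33 for S phase genes, -0.34 for G2 and M phase genes and 0.09 for muscle markers. The part of these cell contents in the other results was tested only by the fits named here.

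**Figure D4:**
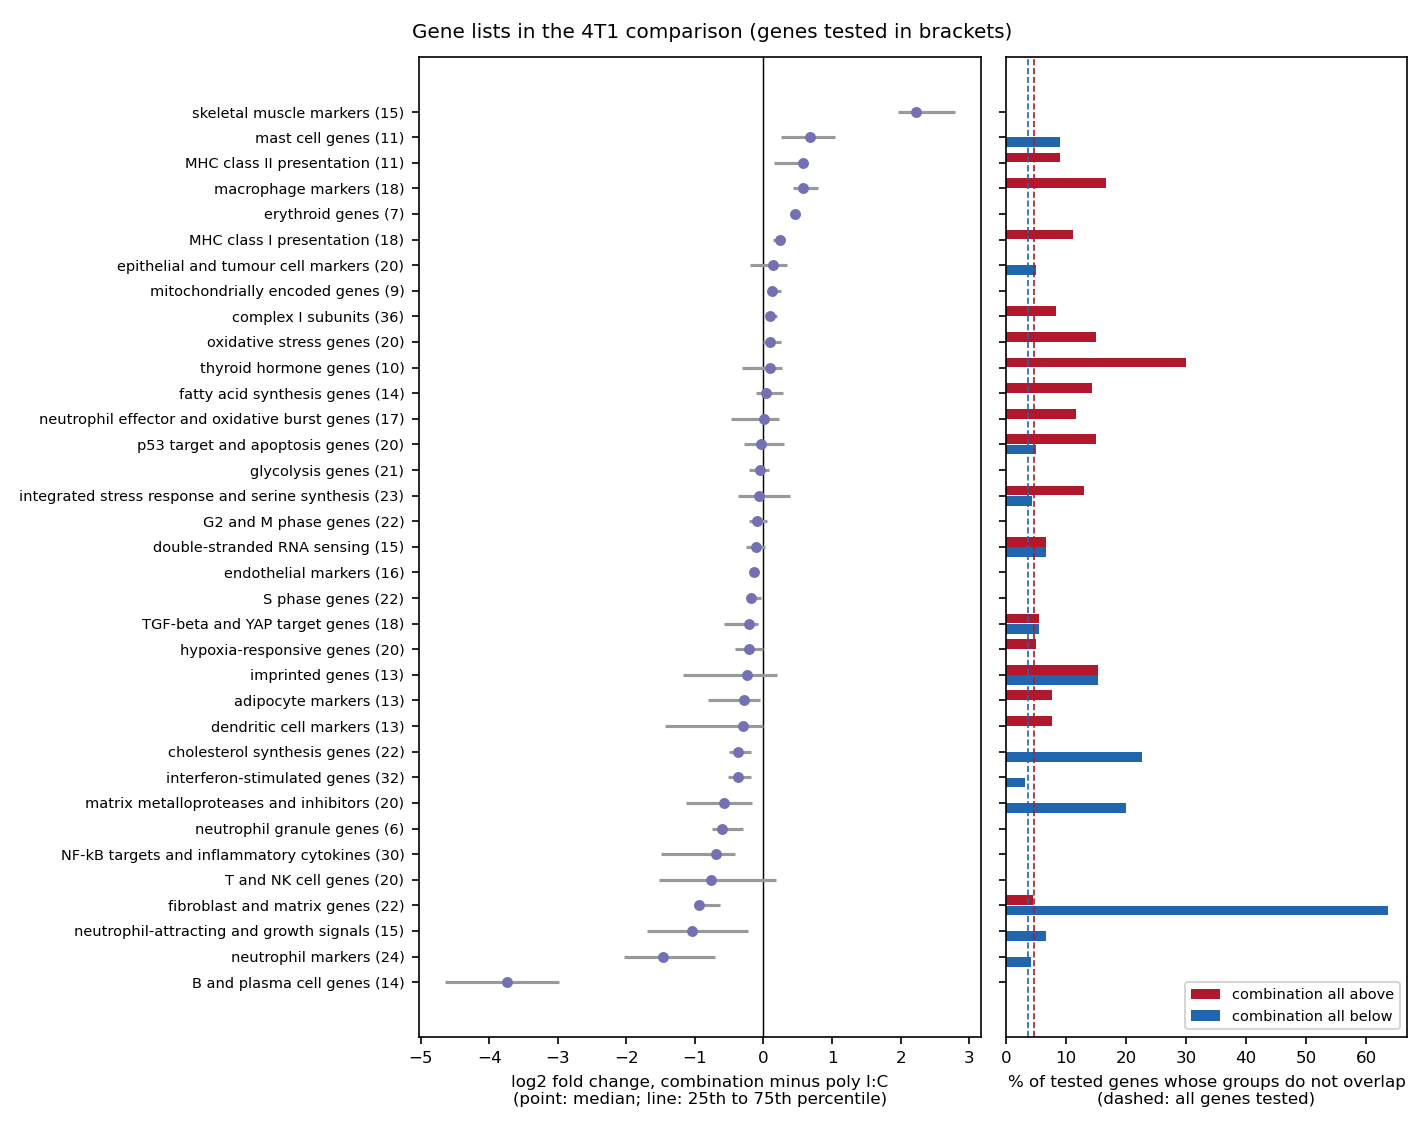
Left, the median (point) and the 25th to 75th percentile (line) of the log2 fold change, combination minus poly I:C, for the tested genes of 35 lists; right, the percentage of those genes whose groups do not overlap, with dashed lines at the 4.71% (higher) and 3.74% (lower) of all genes. Fibroblast and matrix genes have the highest bar, with 14 of 22 lower without overlap, and B and plasma cell genes the lowest median with no gene without overlap.

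The number of called genes varied widely with the setting. Among called genes, Adam12 had log2 fold changes of -1.67 to -1.21, H19 of 1.87 to 2.48, Nlk of -0.59 to -0.50 and Cirbp of 0.80 to 1.16 over the 18 other settings. Their calls held less often: Adam12 passed the test in 8 of those settings, H19 in 7, Nlk in 10 and Cirbp in 7. Dio2 passed in 16. Of genes that were not called, Cxcl2 ran from -4.23 to -2.39 and Nos2 from -1.88 to -1.07, while Igkc changed sign, from -6.09 to 3.27. The fibroblast list kept a median below 0 in all 18, from -1.06 to -0.44.

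**Figure D5:**
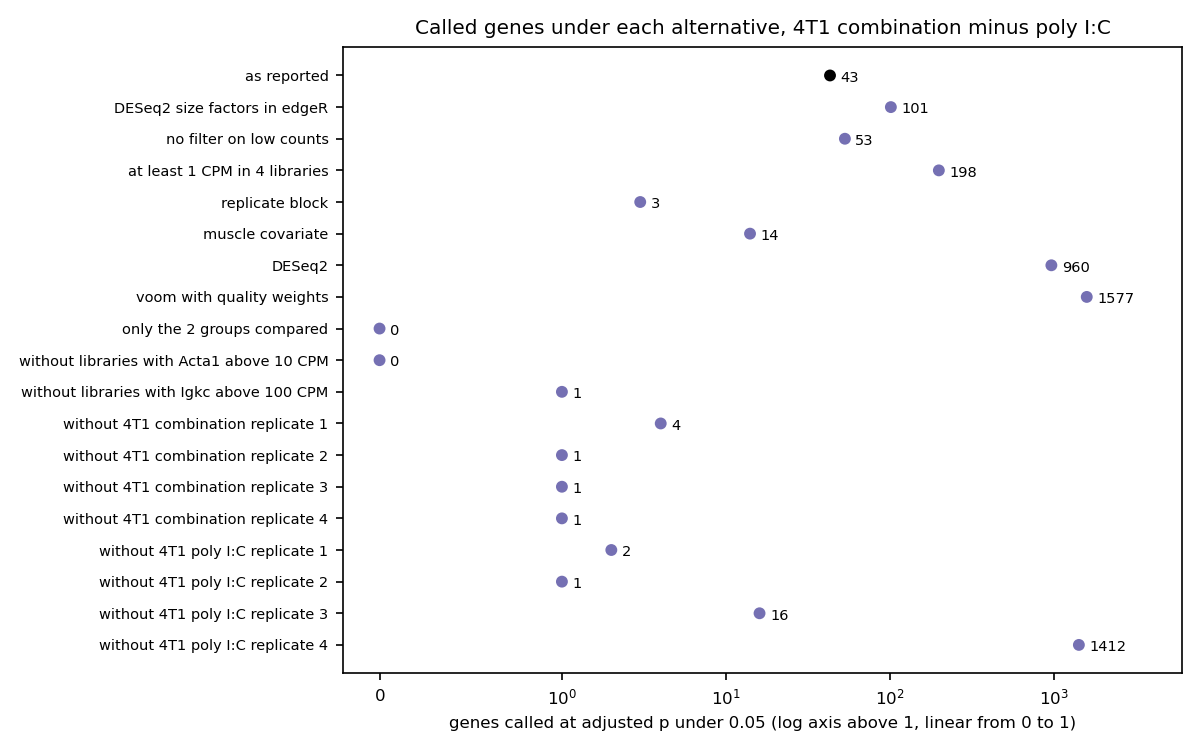
Number of genes called in the combination against poly I:C, at an adjusted p under 0.05, as reported (43) and under 18 other settings, on an axis that is linear up to 1 and logarithmic above. Leaving out poly I:C library 4 gave 1412 genes, voom with quality weights 1577 and DESeq2 960, and 2 settings gave 0.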

How the data were processed

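The deposited table held raw counts of reads per gene for 31 libraries, as whole numbers. Per the submitters' processing notes the authors used Trimmomatic 0.32.48, STAR 2.3.0 and featureCounts 1.4.4 with the builds mm10 and GRCm38; per the labels' protocols the poly(A) libraries were strand-specific. The annotation release and the strand setting of the counting are not given in the sources used here.

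From these counts, edgeR 4.0.16 (R 4.3.3) fitted the 15 libraries titled 4T1 with TMM scaling, after filterByExpr (minimum count 10, minimum total 15). Quasi-likelihood F-tests gave log2 fold changes, whose SE was taken as |log2 fold change| over the root of F. Genes with a p under 0.05 after Benjamini-Hochberg adjustment were called; the adjustment gives many genes 1 shared value. The interaction came from the same fit, and the difference between models from a joint fit of 31 libraries. CPM use TMM-scaled library sizes for single genes and library totals for H2-Ea-ps, Cdkn2a, Krt8, Krt18, Igkc and Epcam in MT, and summed lists. Coordinates are from GENCODE vM21 (37607 of 39017 identifiers matched).

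Alternatives used DESeq2 1.42.0 and limma 3.58.1 (voom). Named genes were up to 40 called genes by p (average log2 CPM no lower than 1), the 3 smallest p of each list, the 5 smallest p of each test of a difference, and a fixed set; genes outside this rule were chosen after their values were seen. Some genes under this rule are not reported here. The genes and the 35 lists were chosen with earlier results of these data known. The fit was tested on simulated counts, where it recovered 62% of genes changed 2-fold and 96% of genes changed 4-fold, with 6 false calls. The simulation held no library that stood apart from its group. Replicate numbers were not used to pair the samples in the fit reported.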

Additional observations from a re-analysis of the deposited data

Results flagged for a closer look

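Of the 111 named genes in the 2 groups of 4 libraries, 222 sets of 4 values were checked for a library far from the other 3 (by Dixon's criterion for 4 values), and 18 were found. Chance gives about 1 in 20 such sets for normally distributed values, and the CPM were not checked for that.

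Poly I:C replicate 4 was far above its group in Galnt15 (37.1 CPM, next 12.9), Tanc2 (107 CPM, next 87.3) and Cirbp (42.4 CPM, next 29.8), and far below it in Trim30a (94.9 CPM, next 163) and Ifit1 (33.7 CPM, next 97.8). In each of the 5 genes its value was the nearest of its group to the combination libraries or lay among them.

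Poly I:C replicate 1 was far above its group in the B cell genes Igkc (657 CPM, next 3.31), Ms4a1 (101 CPM, next 0.255) and Cd79a (84.4 CPM, next 0.318). Combination replicate 3 was far above in Igkc (55.9 CPM) and Ms4a1 (0.856 CPM), and in the chemokine genes Cxcl2 (14.3 CPM, next 3.68) and Cxcl3 (9.54 CPM, next 2.03).

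Combination replicate 4 was far above its group in Kitl (214 CPM, next 143), Lif (33.2 CPM, next 24.9) and Gm26512 (2.26 CPM, next 1.42). Single values far from the rest were Fam98a in poly I:C replicate 2 (62.3 CPM, next 52.8), Man1c1 in combination replicate 1 (30.8 CPM, next 41.4) and Ifit1 in combination replicate 2 (27.7 CPM, next 54.8). The source of these values was not tested.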

How the results depend on the processing

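The count of called genes in the combination against poly I:C, 43 as reported, was 101 with DESeq2 size factors, 198 with at least 1 CPM in 4 libraries, 14 with the muscle covariate, 960 with DESeq2, 1577 with voom and quality weights, 0 with only the 2 groups compared (2757 at an unadjusted p under 0.05), 0 with the libraries above 10 CPM of Acta1 left out (1404 unadjusted) and 1 without those with Igkc above 100 CPM. Leaving out each library gave 1 to 1412 genes, the highest without poly I:C replicate 4, where the 43 genes were all called. With the replicate number as a block, 3 genes were called. Correlations of the deviations of same-numbered libraries were -0.0663, -0.162, -0.0223 and -0.222, and those of differently numbered libraries ran from -0.229 to 0.315. The labels do not say whether the numbers mark a pairing or a shared batch, and these values cannot tell. The interaction, 0 as reported, gave 36 with DESeq2, 2 with voom and 0 to 19 on leaving out a library. The difference between models, 0 as reported, gave 2 with the 1 CPM filter, 1 with the replicate block, 40 with DESeq2, 662 with voom and 0 to 18 on leaving out a library, both upper values without poly I:C replicate 4. The cause was not tested. Fits that left out libraries also held fewer of them.

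Over 111 named genes and 18 settings, 493 values were of called genes that kept their sign without passing the test. Another 149 were of genes not called as reported that passed it. In 17 cases the value changed sign, all in genes that were not called. Ndufs4 was -0.045 with the muscle covariate and ran from -0.091 to 0.22 on leaving out a library. Acta1 was -0.22 with the muscle covariate and -0.0087 with voom. Igkc was 0.98 with voom, 3.27 without the libraries with Igkc above 100 CPM and -6.09 to 3.27 on leaving out a library. Ms4a1 was 1 and Cd79a 1.01 without those libraries, and on leaving out a library they ran from -7.72 to 0.997 and from -6.5 to 0.998. Arg1 was 0.71 with the libraries above 10 CPM of Acta1 left out and ran from -0.55 to 0.19 on leaving out a library. Tlr3 ran from -0.21 to 0.042. The medians of the fibroblast, metalloprotease, NF-kB, interferon, neutrophil marker, macrophage, MHC, cholesterol and complex I lists kept their sign in the 18 settings. Some came near 0, with lowest medians of 0.007 for MHC class II, 0.023 for MHC class I and 0.047 for complex I.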

Other observations

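Further cell type lists had no called gene in the combination against poly I:C. Mast cell genes had a median log2 fold change of 0.68 (-0.0044 without combination library 4, 1.47 without poly I:C library 3 and 0.28 without poly I:C library 4), with 9 of 11 tested above 0 and a summed level of 30.7 to 93.9 CPM in poly I:C libraries and 26.5 to 101 CPM in combination libraries. Dendritic cell markers had a median of -0.30 (-0.01 without poly I:C library 1, -0.51 without poly I:C library 2 and -0.57 without poly I:C library 4), with 11 of 13 below 0 and a summed level of 725 to 883 CPM in poly I:C libraries and 764 to 808 CPM in combination libraries. Neutrophil granule genes, which mark immature neutrophils, had a median of -0.60 (-0.36 without combination library 4 and -0.33 without poly I:C library 1) with 5 of 6 tested below 0. Erythroid genes had a median of 0.46 (0.26 without combination library 1 and 0.78 without combination library 4). Endothelial markers had a median of -0.14 (from -0.35 without combination library 3 to -0.02 without combination library 1) and adipocyte markers one of -0.28 (from -1.05 without combination library 3 to -0.0038 without poly I:C library 3). With the libraries above 10 CPM of Acta1 left out, the median was 0.20 for endothelial markers, 2.06 for adipocyte markers and -0.87 for dendritic cell markers.

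The 5 libraries titled 4T1 with Acta1 above 10 CPM were combination replicates 1 and 4, poly I:C replicates 2 and 3 and phenformin replicate 4. No control library was among them.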
